A study of Homo sapiens with 6 samples.

Results

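The endoplasmic reticulum (ER) is where secreted and membrane proteins fold, and its chaperones and the genes of the unfolded protein response were followed here in AC16 cells given extra potassium. The members are 35 genes picked by symbol from a list of known ER folding, sensing and degradation genes, out of 19386 genes in the deposited table. The list also held an older symbol, VIMP, for a gene that the table gives as SELENOS. All 35 had enough reads to enter the test, with 43 to 20222 estimated reads in a library. The members were listed by function, with earlier results of these data known.

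One group of libraries came from AC16 cells treated with 26 mM potassium chloride (KCl), and the control group from untreated AC16 cells. Both groups were collected at 16 h, carry the label WT and have 3 libraries each. AC16 is a human line made by fusing ventricular heart cells with virus-transformed fibroblasts, and KCl depolarizes the cell membrane, as cardioplegia solutions do in heart surgery. The study's title links potassium and del Nido cardioplegia to NRF2 and oxidative stress. No group given another salt is analysed here, and nothing in the labels tells whether replicate libraries stem from independent cultures. P-values here therefore reflect library-to-library spread alone, part or all of which may be technical.

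Library totals ran from 18886525 to 19159312 estimated reads in KCl and from 18601977 to 19286588 in control. The labels call the cells cardiomyocytes, but 10 of 13 cardiomyocyte markers stayed under 1 TPM (a transcript level scaled to gene length and library size) in every library, among them TNNT2, MYH6, MYH7 and NKX2-5, and GATA4 averaged 29 TPM in KCl and 30.2 TPM in control. The summed level of 10 fibroblast markers was 2962 to 3150 TPM in KCl and 2809 to 3038 TPM in control. Of these 10, 9 were called higher after KCl, beside 20.1% of all genes tested. COL1A1, the most abundant of them, had a lower mean in KCl (1527 TPM) than in control (1659 TPM). Smooth muscle markers summed to 180.8 to 192.5 TPM in KCl and 176.7 to 200.1 TPM in control, and endothelial markers to 5.43 to 5.84 TPM in KCl and 4.31 to 5.02 TPM in control, with PECAM1, CDH5, VWF and KDR under 1 TPM. Epithelial markers, mostly KRT18, summed to 552.1 to 580.6 TPM in KCl and 388.8 to 399.4 TPM in control with EPCAM under 1 TPM, and leukocyte markers, mostly CD68, to 121.5 to 130.7 TPM in KCl and 169.7 to 184.0 TPM in control. Among the markers tested in these lists, 1 of 5 for smooth muscle, 1 of 2 for endothelium and 2 of 4 for epithelium were called higher. For leukocytes 1 of 3 was called lower. The part of all these markers in the results on ER genes was not tested.

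Folding in the ER is run by several kinds of protein. The chaperone BiP, made by HSPA5, and GRP94, made by HSP90B1, hold unfolded chains, the lectins calnexin and calreticulin hold chains that carry sugars, and protein disulfide isomerases form and rearrange disulfide bonds. When unfolded protein builds up, the membrane sensors IRE1, PERK and ATF6 set off the unfolded protein response, which raises chaperone and degradation genes through the factors XBP1, ATF4 and cleaved ATF6. Chains that cannot fold are handed to ER-associated degradation, in which they are drawn back into the cytosol and destroyed.

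After 16 h in KCl many of the folding genes were a little lower. Of the 35 genes, 14 were lower after KCl and 5 higher, and 16 did not pass the test (edgeR quasi-likelihood test, Benjamini-Hochberg adjusted p under 0.05 over 13044 genes). Among all genes tested, 18.0% were called lower and 20.1% higher. The lower share of the members, 40%, was above that background and the higher share, 14.3%, below it. The background was not matched to the members by level. The median log2 fold change of the members was -0.06, beside -0.005 for all genes tested. The KCl libraries lay wholly below the control libraries for 15 members and wholly above them for 5. Of all genes tested 47.8% did not overlap, 23.3% with KCl lower and 24.5% with KCl higher. Changes were small. No member changed by as much as 2-fold, and among called genes the median absolute log2 fold change was 0.21 for members and 0.31 over the whole table. In bulk RNA, fewer cells that express a gene and less RNA per cell cannot be told apart. Tested against a change of 1.2-fold rather than against none (glmTreat of edgeR), 2 members remained lower and 1 higher, which were HYOU1, PDIA4 and PDIA5. By the same test 430 genes in all were lower and 661 higher. By limma on log2(FPKM + 1) instead of on counts, 17 members were lower and 2 higher, beside 3187 lower and 1594 higher genes in all.

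**Figure D1:**
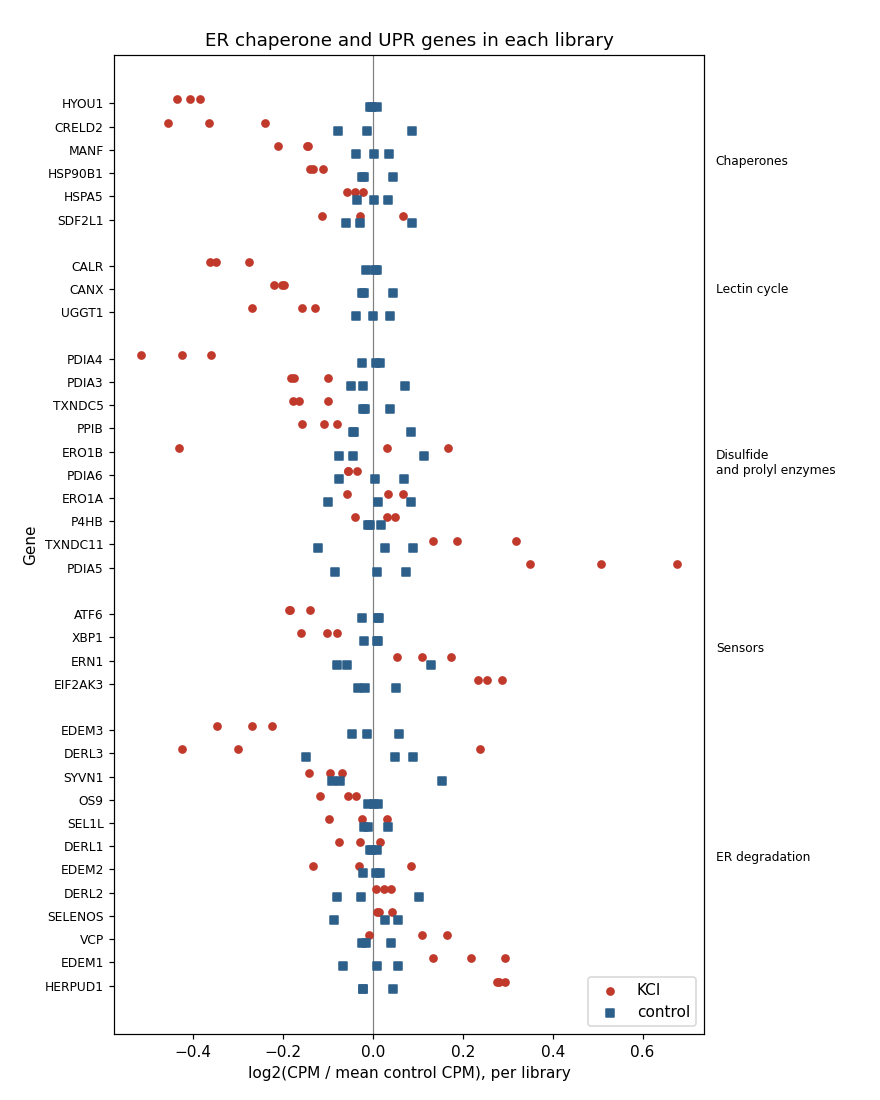
Level of each of the 35 genes in each library, as log2 of its CPM over the mean control CPM, with genes grouped by function. Red circles are the 3 KCl libraries and blue squares the 3 control libraries. The KCl points of HYOU1, CALR and PDIA4 lie to the left of all their control points, and those of PDIA5, EIF2AK3 and HERPUD1 to the right.

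By function, of the 6 chaperones and cofactors 4 were lower and 0 higher, and of the 3 genes of the lectin cycle 3 were lower and 0 higher. Of the 10 disulfide and prolyl enzymes 4 were lower and 2 higher, and of the 4 sensor genes 2 were lower and 1 higher. Of the 12 degradation genes 1 was lower and 2 higher. No further member had an unadjusted p under 0.05. The median log2 fold change was -0.15 for chaperones, -0.21 for the lectin cycle, -0.06 for disulfide and prolyl enzymes and -0.03 for degradation genes. Differences between these functions were not tested.

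**Figure D2:**
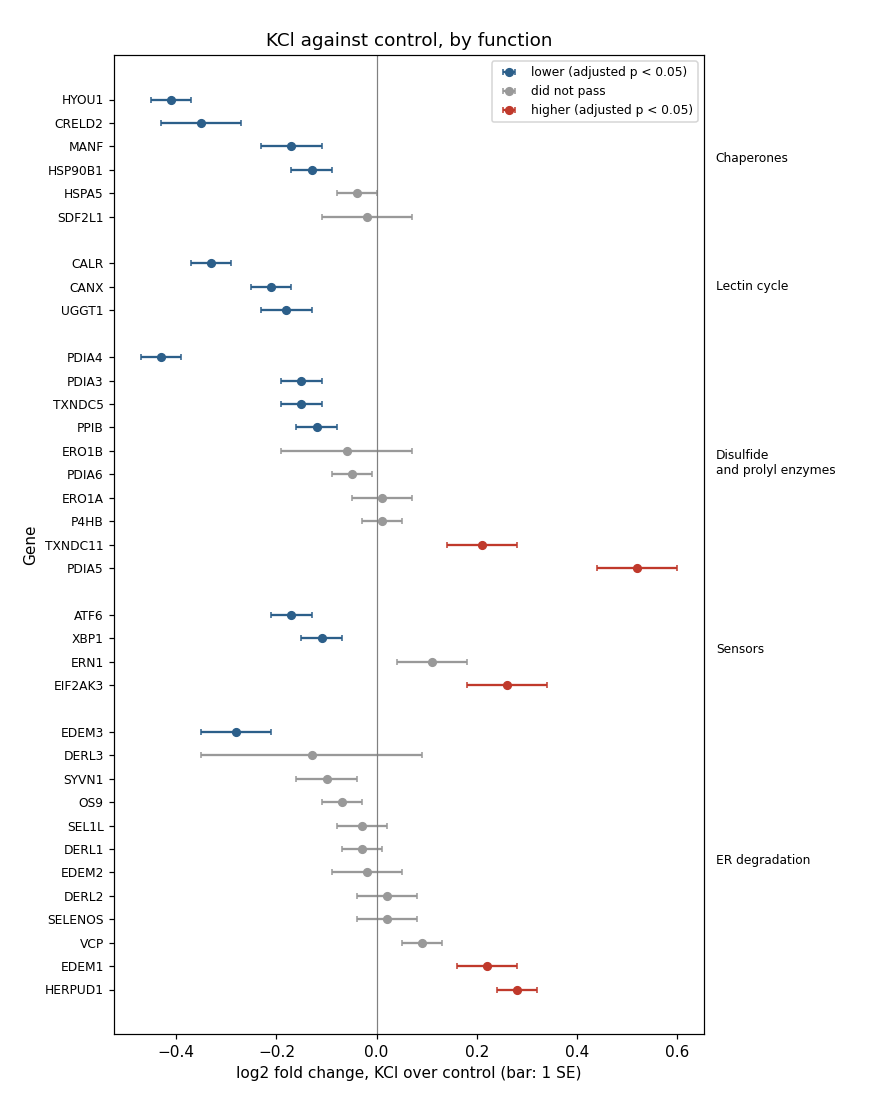
Log2 fold change of KCl over control for each gene, grouped by function, with bars of 1 SE from the edgeR fit. Blue marks genes called lower, red genes called higher and grey genes that did not pass. The values run from -0.43 for PDIA4 to 0.52 for PDIA5.

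Set beside one another on the per-length scale, the members were spread over a wide range, and the 9 most abundant were folding genes and XBP1. CALR had the highest level, at 928.9 ± 18.9 TPM in KCl and 1198 ± 13.1 TPM in control (SD, n = 3 each). P4HB, the disulfide isomerase that is also a subunit of collagen prolyl hydroxylase, came next at 708.1 ± 11.7 TPM in KCl and 719.5 ± 4.08 TPM in control. HSP90B1, PPIB, XBP1 and HSPA5 followed, at 482.8 to 554.0 TPM in KCl and 508.4 to 620.5 TPM in control. The lowest levels in control were those of DERL3, at 2.69 ± 0.405 TPM in KCl and 3.36 ± 0.3 TPM in control, ERO1B, at 3.98 ± 0.855 TPM in KCl and 4.32 ± 0.284 TPM in control, and the sensor ERN1, at 8.05 ± 0.369 TPM in KCl and 7.59 ± 0.637 TPM in control. The first 9 places in this order were held by the same genes in both groups.

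Added together, the 35 genes made 6223, 6237 and 6195 TPM in the KCl libraries and 6904, 7017 and 6921 TPM in the control libraries, a difference of -10.5%. The groups did not overlap. The lectin cycle had the largest difference of the functions, with 1270, 1256 and 1235 TPM in KCl and 1567, 1583 and 1595 TPM in control. Chaperones summed to 1299 ± 16.1 TPM in KCl and 1452 ± 16.4 TPM in control, and disulfide and prolyl enzymes to 2205 ± 15.3 TPM in KCl and 2391 ± 52.4 TPM in control (SD, n = 3 each). Sensor genes, of which XBP1 makes up most, summed to 574.4 ± 11.8 TPM in KCl and 640.9 ± 2.58 TPM in control. The sum of the degradation genes was 886.2 ± 19 TPM in KCl and 881.5 ± 9.97 TPM in control, a difference within the spread between libraries. These sums are a description and were not tested. They rest on TPM, which lack the TMM scaling used in the test on counts. Over all genes the median log2 fold change was -0.037 on log2(TPM + 1), beside -0.005 from counts. The part of this scaling in the differences between sums was not tested.

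**Figure D3:**
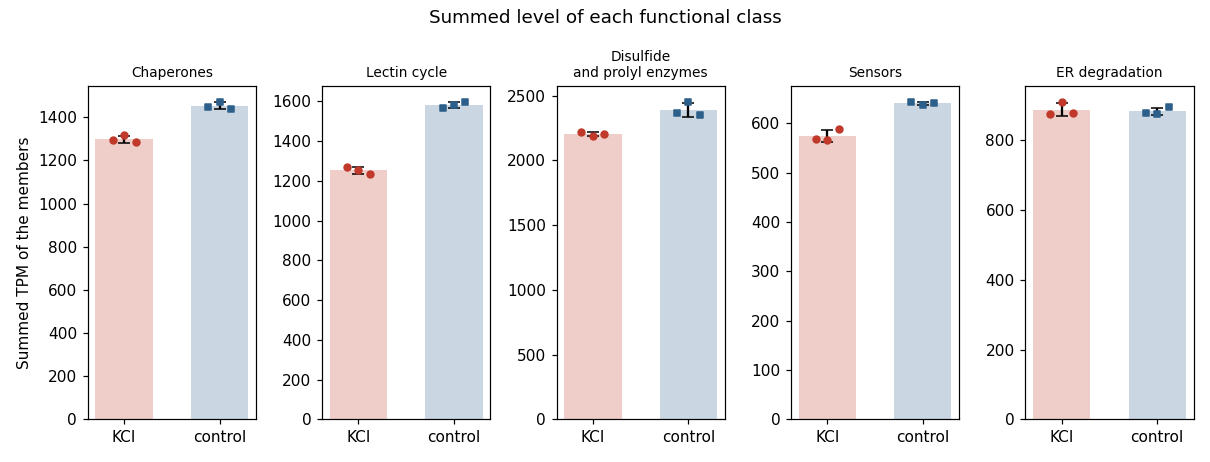
Summed TPM of the members of each function, with KCl at the left and control at the right of each panel. Bars are means of 3 libraries, whiskers are SD and points are single libraries, and every axis starts at 0. The lectin cycle sum is 1254 TPM in KCl and 1582 TPM in control, and the degradation sums overlap.

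Many ER genes are known to carry the ER stress response element (ERSE) in their promoter, which ATF6 binds with the factor NF-Y and which is spelled CCAAT and CCACG with any 9 bases between them. It was looked for on both strands of the promoter sequences of RefSeq (GRCh38.p14), each 250 bases before to 50 after a gene start, together with ERSE-II (ATTGG and CCACG with any 1 base between them) and the XBP1 and ATF6 element UPRE (TGACGTGG). A sequence was at hand for 32 of the 35 members, and not for DERL1, DERL3 and PDIA3. Only exact matches were counted here and in what follows. A window given as lacking a motif may therefore hold a copy that differs in some letters. ERSE stood in 7 of these 32 windows, or 21.9%, and in 22 of all 27305 windows, or 0.0806%. ERSE-II stood in 3 member windows (9.38%), beside 0.0549% of all, and UPRE in 3 (9.38%), beside 0.795% of all. Of 75 windows of ER genes outside the members, from the lists described below, 0 held ERSE, 0 ERSE-II and 3 (4%) UPRE. In all, 12 members had at least 1 of the motifs, among them 5 of the 6 chaperones. The sites are shown because these genes share a known control element, whose part in their response to KCl was not tested. Motifs are in capitals, with 10 bases either side where the window allows. Each site is written 5′ to 3′ on the strand that carries the motif.
HSPA5: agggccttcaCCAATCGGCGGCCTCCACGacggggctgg
HSP90B1, first site: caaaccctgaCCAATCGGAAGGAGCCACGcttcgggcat
HSP90B1, next site: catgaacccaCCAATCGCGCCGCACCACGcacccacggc
CRELD2: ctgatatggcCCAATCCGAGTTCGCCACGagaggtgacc
CALR: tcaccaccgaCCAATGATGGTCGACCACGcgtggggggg
CANX: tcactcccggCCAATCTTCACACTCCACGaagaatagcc
ERO1B: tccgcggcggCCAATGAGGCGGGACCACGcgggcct
XBP1: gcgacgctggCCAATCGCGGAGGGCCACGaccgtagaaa

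These stretches lie at chr9:125241381-125241419 for HSPA5 (minus strand), chr12:103930206-103930244 (plus strand) and chr12:103930311-103930349 (minus strand) for HSP90B1, chr22:49918544-49918582 for CRELD2 (minus strand), chr19:12938374-12938412 for CALR (minus strand), chr5:179698768-179698806 for CANX (plus strand), chr1:236282173-236282208 for ERO1B (plus strand) and chr22:28800593-28800631 for XBP1 (minus strand). HSP90B1 was the member with 2 ERSE sites. The windows follow the gene starts of RefSeq, which can differ from the outermost gene ends of GENCODE release 29 given for each gene in what follows. By those, the sites of CANX, HSP90B1 and CRELD2 lie inside the annotated gene, that of CANX far inside it.

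Of the 7 members with ERSE, 5 were lower after KCl (CALR, CANX, CRELD2, HSP90B1 and XBP1), 0 were higher, and HSPA5 and ERO1B did not pass. Their log2 fold changes ran from -0.35 to -0.04, with a median of -0.13. Of the 25 members whose window held no exact ERSE, 8 were lower and 5 higher, with a range of -0.43 to 0.52 and a median of -0.02. Near matches, such as the one in HERPUD1 described below, count among these 25 as without ERSE. Another 7 tested genes outside the members had an exact copy of the element. Among them FICD, which codes for the enzyme that adds AMP to BiP, was lower (log2 fold change -0.38, edgeR adjusted p = 0.00463), TRIM5 (0.67) and TMEM120A (0.39) were higher, and ALG12, EIF2A, SERP1 and ZNF17 did not pass. The RefSeq windows of ALG12 and CRELD2 hold the same ERSE site on chromosome 22, and their log2 fold changes were 0.02 and -0.35. Those of EIF2A and SERP1 also share a site, on chromosome 3, with log2 fold changes of 0.07 and 0.01. Not all of these genes therefore have a site of their own. Over all tested genes with a promoter sequence, 42.9% of the 14 with ERSE were called lower, beside 18.4% of the 10596 without it. The members make up 7 of those 14 and 5 of the 6 that were lower, so this share largely repeats the result on the members. Of the 7 outside the members, 1 was lower (14.3%) and 2 were higher (28.6%). The shares were not tested.

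ERSE-II was found in the windows of HYOU1, HERPUD1 and SDF2L1. HYOU1, which fell after KCl, and HERPUD1, which rose, are printed whole up to the RefSeq gene start. Each stretch has 250 bases and is given on the strand of the gene. Whether the element has a part in either change was not tested. In HYOU1 (chr11:119057206-119057455, minus strand) capitals mark 2 copies of ERSE-II read on the other strand, the first of them overlapped by a UPRE. In HERPUD1 (chr16:56931892-56932141, plus strand) capitals mark 1 copy, and the printed stretch runs past the GENCODE start of the gene. The HERPUD1 stretch also holds CCAAT and CCACA with 9 bases between them. This differs from ERSE in the last letter only, and was neither counted nor put in capitals.
HYOU1: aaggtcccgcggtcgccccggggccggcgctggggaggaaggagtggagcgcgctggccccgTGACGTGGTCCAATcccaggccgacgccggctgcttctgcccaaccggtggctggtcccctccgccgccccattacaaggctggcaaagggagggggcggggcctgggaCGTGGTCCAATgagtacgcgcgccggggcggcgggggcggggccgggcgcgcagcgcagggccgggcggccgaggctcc
HERPUD1: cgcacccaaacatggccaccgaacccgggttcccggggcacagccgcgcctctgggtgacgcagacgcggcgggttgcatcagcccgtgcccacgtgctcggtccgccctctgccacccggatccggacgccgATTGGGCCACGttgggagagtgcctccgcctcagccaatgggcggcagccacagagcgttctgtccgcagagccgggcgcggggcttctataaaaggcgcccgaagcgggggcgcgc

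HSPA5, the gene of BiP and the usual readout of the unfolded protein response, did not pass. BiP binds the lumenal side of all 3 sensors and holds them quiet. HSPA5 (GRCh38 chromosome 9, 125234853 to 125241330) had 903.8, 882.6 and 893.8 CPM (reads scaled to library size by TMM) in KCl and 919.7, 939.2 and 896.1 CPM in control. The 2 ranges overlapped only between the highest KCl and the lowest control library. Its log2 fold change was -0.04 ± 0.04 (SE), with an edgeR adjusted p of 0.425. By limma on log2(FPKM + 1) it was called lower (-0.10, adjusted p = 0.0463), the 1 alternative of 16 that called it.

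HYOU1 showed the largest fall of the chaperones. It codes for a large HSP70-like chaperone that exchanges the nucleotide of BiP. HYOU1 (chromosome 11, 119044189 to 119057202) had 188.5, 192.5 and 195.4 CPM in KCl and 256.8, 254.7 and 253.9 CPM in control. The groups were far apart and tight, and the log2 fold change was -0.41 ± 0.04 (edgeR adjusted p = 9.87e-09), with -0.47 to -0.40 over the 16 alternatives. SIL1, which codes for the other nucleotide exchange factor of BiP and is no member, was also lower, at 22.2, 21.2 and 21.1 CPM in KCl and 30.9, 31.1 and 28.5 CPM in control (log2 fold change -0.49 ± 0.07, edgeR adjusted p = 1.06e-05).

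HSP90B1 codes for GRP94, the HSP90 of the ER, which folds integrins among others. HSP90B1 (chromosome 12, 103930107 to 103953645) had 742.7, 731.3 and 727.3 CPM in KCl and 790.4, 827.4 and 788.0 CPM in control. All KCl libraries lay below all control libraries, though by little, and the log2 fold change was -0.13 ± 0.04 (edgeR adjusted p = 0.00835).

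CRELD2 and MANF code for small proteins of the ER that are partly secreted when ER calcium falls or folding is disturbed. CRELD2 (chromosome 22, 49918167 to 49927540) had 23.1, 25.2 and 21.7 CPM in KCl and 29.5, 31.6 and 28.2 CPM in control, a log2 change of -0.35 ± 0.08 (edgeR adjusted p = 0.000863). MANF (chromosome 3, 51385047 to 51389397) had 41.7, 41.6 and 39.8 CPM in KCl and 47.2, 46.1 and 44.9 CPM in control, at -0.17 ± 0.06 (edgeR adjusted p = 0.0324). Both were lower in every KCl library than in any control library. The MANF call was lost without KCl replicate 1 (edgeR adjusted p = 0.0523) or 3 (0.106), without control replicate 1 (0.111) or 2 (0.0626) and by DESeq2 (0.0531). SDF2L1, a cofactor of BiP, had 15.3, 13.5 and 14.3 CPM in KCl and 14.3, 14 and 15.5 CPM in control and did not pass (-0.02 ± 0.09).

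The 3 members of the calnexin and calreticulin cycle were all lower. Of other genes of the cycle, GANAB and PRKCSH of glucosidase II had log2 fold changes of -0.03 and -0.00, MOGS of 0.14, UGGT2 of 0.12 and the calnexin relative CLGN of 0.19, and none of these 5 passed. CALR codes for calreticulin, the soluble lectin that also binds much of the calcium of the ER. CALR (chromosome 19, 12938578 to 12944489) had 841.8, 792.8 and 800.0 CPM in KCl and 1009, 1026 and 1023 CPM in control. The KCl libraries fell well short of the control ones, and the log2 fold change was -0.33 ± 0.04 (edgeR adjusted p = 1.48e-07). CANX, the gene of its membrane-bound partner calnexin (chromosome 5, 179678628 to 179730925), had 585.1, 586.8 and 578.1 CPM in KCl and 664.2, 694.1 and 662.2 CPM in control. Its log2 fold change was -0.21 ± 0.04 (edgeR adjusted p = 9.45e-05), again without overlap. UGGT1 codes for the enzyme that puts a glucose back on misfolded glycoproteins so that the lectins bind them again. UGGT1 (chromosome 2, 128091200 to 128195677) had 148.2, 163.4 and 160.3 CPM in KCl and 178.7, 174.0 and 183.6 CPM in control, at -0.18 ± 0.05 (edgeR adjusted p = 0.00213), with no overlap. The 3 calls held in each fit that left out 1 library, and not against a change of 1.2-fold (edgeR adjusted p of 0.115 for CALR and 1 for CANX and UGGT1).

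Disulfide isomerases went both ways, with the largest fall and the largest rise of all members in this class. PDIA4, also called ERp72 (chromosome 7, 149003062 to 149028641), had 153.9, 144.4 and 160.9 CPM in KCl and 208.8, 207.6 and 203.1 CPM in control. It fell in every KCl library relative to every control library, with a log2 change of -0.43 ± 0.04 (edgeR adjusted p = 2.53e-08). PDIA5, a less abundant member of the same family (chromosome 3, 123067062 to 123225227), had 33.8, 30.3 and 38 CPM in KCl and 23.9, 25 and 22.4 CPM in control. PDIA5 was higher in each KCl library than in any control library, by 0.52 ± 0.08 on the log2 scale or 1.43-fold (edgeR adjusted p = 1.59e-05), and was the only member called higher against a change of 1.2-fold (adjusted p = 0.00848).

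PDIA3, or ERp57, works with calnexin and calreticulin on glycoproteins. PDIA3 (chromosome 15, 43746392 to 43773279) had 503.4, 478.1 and 475.5 CPM in KCl and 531.3, 566.8 and 521.4 CPM in control, a log2 change of -0.15 ± 0.04 (edgeR adjusted p = 0.00435). TXNDC5, another thioredoxin-domain isomerase (chromosome 6, 7881517 to 7910814), had 247.5, 258.5 and 244.9 CPM in KCl and 273.9, 284.8 and 273.1 CPM in control, also at -0.15 ± 0.04 (edgeR adjusted p = 0.00517). In both genes all KCl libraries were below all control libraries. In the annotation a readthrough gene, BLOC1S5-TXNDC5, shares 2658 exon bases with TXNDC5 on the same strand and is not among the symbols of the table, so reads of the 2 cannot be told apart here.

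Of the other 6 enzymes, PPIB was lower, TXNDC11 higher and 4 did not pass. PPIB, the cyclophilin B gene, whose prolyl isomerase helps collagen fold, was at -0.12 ± 0.04 on the log2 scale (edgeR adjusted p = 0.037), and lost its call without KCl replicate 2 (0.125) or 3 (0.0773) and without control replicate 2 (0.214). TXNDC11 was at 0.21 ± 0.07 (edgeR adjusted p = 0.0132) and lost its call without KCl replicate 1 (0.101) or control replicate 3 (0.0934). P4HB, with 863.4, 811.7 and 853.8 CPM in KCl and 828.9, 845.1 and 831.6 CPM in control, did not pass (0.01 ± 0.04), nor did PDIA6 (-0.05 ± 0.04). The genes of the oxidases that pass electrons from disulfide isomerases to oxygen did not pass either. ERO1A, which is also a hypoxia-response gene, was at 0.01 ± 0.06 and ERO1B at -0.06 ± 0.13, with KCl libraries of ERO1B spread from 7.33 to 11.1 CPM.

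The 3 sensors and XBP1 did not move together. ATF6 codes for the sensor that is cut in the Golgi to free a transcription factor. ATF6 (chromosome 1, 161766294 to 161964070) had 131.6, 131.7 and 136.0 CPM in KCl and 147.2, 151.3 and 150.9 CPM in control, a log2 change of -0.17 ± 0.04 (edgeR adjusted p = 0.00278) with no overlap. EIF2AK3 codes for PERK, the kinase that slows translation by phosphorylating eIF2-alpha. EIF2AK3 (chromosome 2, 88556741 to 88627576) had 22.6, 22.1 and 21.8 CPM in KCl and 18.1, 18.3 and 19.2 CPM in control, a log2 change of 0.26 ± 0.08 (edgeR adjusted p = 0.0112), also with no overlap. Its call held in each fit that left out 1 library and was lost by limma on log2(TPM + 1) (0.19, adjusted p = 0.0894) and on log2(FPKM + 1) (0.14, adjusted p = 0.109).

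ERN1 codes for IRE1, the kinase and nuclease that cuts an intron out of XBP1 mRNA. ERN1 (chromosome 17, 64039142 to 64130819) had 32.4, 31 and 29.8 CPM in KCl and 27.6, 27.2 and 31.4 CPM in control. The groups overlapped through 1 control library, and ERN1 did not pass (0.11 ± 0.07, edgeR adjusted p = 0.237). XBP1 (chromosome 22, 28794555 to 28800597) had 418.0, 402.0 and 424.6 CPM in KCl and 451.6, 452.6 and 443.0 CPM in control, a log2 change of -0.11 ± 0.04 (edgeR adjusted p = 0.0204) with no overlap. Its call was lost without KCl replicate 2 (0.0826) or control replicate 1 (0.0741). Counts per gene do not separate spliced from unspliced XBP1, and they do not show the cleavage of ATF6 or the phosphorylation of PERK and IRE1.

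Of the degradation genes 3 of 12 were called in either direction, beside 38.0% of all genes tested. HERPUD1, which codes for a membrane protein that gathers the degradation complex around the ligase HRD1, rose. HERPUD1 (chromosome 16, 56932048 to 56944863) had 157.2, 157.7 and 159.1 CPM in KCl and 127.7, 133.9 and 127.7 CPM in control, a log2 change of 0.28 ± 0.04 (edgeR adjusted p = 1.05e-05). Its KCl values were tight and all above the control ones.

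The 3 EDEM genes, which code for proteins that trim mannose from glycoproteins bound for degradation, split. EDEM1 (chromosome 3, 5187646 to 5219957) had 46.7, 49.2 and 44 CPM in KCl and 38.3, 41.7 and 40.4 CPM in control, at 0.22 ± 0.06 on the log2 scale (edgeR adjusted p = 0.01). EDEM3 (chromosome 1, 184690231 to 184754913) had 25.9, 23.8 and 25.1 CPM in KCl and 30, 31.5 and 29.3 CPM in control, at -0.28 ± 0.07 (edgeR adjusted p = 0.00331). Neither showed overlap between the groups, and EDEM2 did not pass (-0.02 ± 0.07). The EDEM1 call was lost without KCl replicate 2 (0.0534), without control replicate 1 (0.0681) and by limma on log2(TPM + 1) (0.17, adjusted p = 0.104).

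The core of the HRD1 complex did not pass. SYVN1, the gene of the ubiquitin ligase HRD1 itself, was at -0.10 ± 0.06, its partner gene SEL1L at -0.03 ± 0.05, and OS9, whose lectin brings in glycoproteins, at -0.07 ± 0.04 (edgeR adjusted p = 0.177). The OS9 ranges did not overlap, with 217.5 to 229.9 CPM in KCl and 234.1 to 237.7 CPM in control. The Derlin genes DERL1 (-0.03), DERL2 (0.02) and DERL3 (-0.13 ± 0.22, at 2.31 to 3.66 CPM in KCl and 2.8 to 3.3 CPM in control), SELENOS (0.02) and VCP (0.09 ± 0.04, edgeR adjusted p = 0.11), which codes for the ATPase that pulls chains out of the membrane, did not pass. VCP was called higher without KCl replicate 3 (0.14, edgeR adjusted p = 0.0227). OS9 was called lower by limma on log2(TPM + 1) (-0.10, adjusted p = 0.0472) and on log2(FPKM + 1) (-0.13, adjusted p = 0.0194). DERL1 was called lower by limma on log2(FPKM + 1) (-0.12, adjusted p = 0.0367). Among the degradation genes, 1 was higher and 2 lower on log2(TPM + 1), and 1 higher and 3 lower on log2(FPKM + 1).

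**Figure D4:**
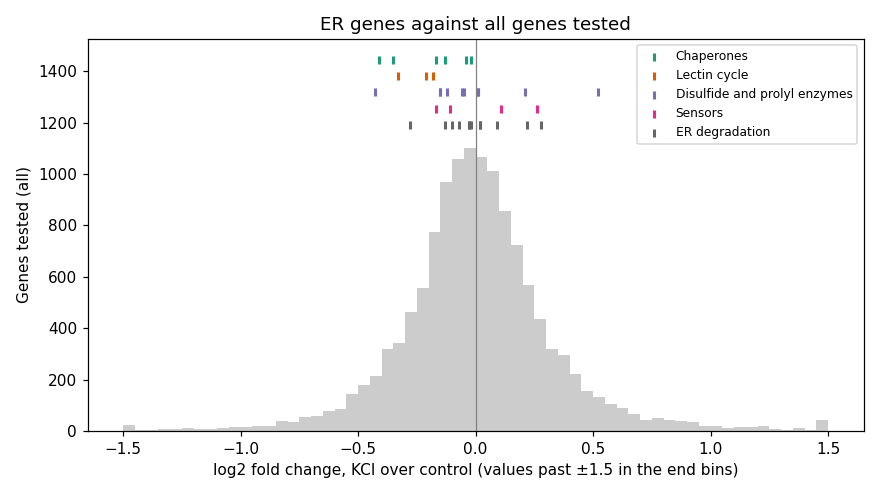
Histogram of the log2 fold change of KCl over control for all 13044 genes tested, with a tick for each of the 35 genes above it in a row per function. The ticks lie between -0.43 and 0.52, and those of the chaperones and the lectin cycle all lie below 0.

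Other genes of the ER, from lists drawn up by function, were read from the same fit. Together 21 of the 89 tested were higher (23.6%) and 18 lower (20.2%), near the background of 20.1% and 18.0%, with a median log2 fold change of 0.02. Of the 34 other folding genes 8 were higher and 5 lower. TMX4, a membrane-bound thioredoxin-like protein gene, had 14.5, 15.1 and 14.8 CPM in KCl and 26.8, 25.6 and 21.6 CPM in control (log2 fold change -0.74 ± 0.09, edgeR adjusted p = 3.89e-07), and FKBP14, a prolyl isomerase gene, rose by 0.40 ± 0.07. Of the 23 other degradation genes 3 were higher and 8 lower. MAN1B1, an ER mannosidase gene, had 57.3, 56.6 and 56.3 CPM in KCl and 77.8, 78.7 and 77.7 CPM in control (-0.46 ± 0.05, edgeR adjusted p = 1.15e-07). ERLIN1 was lower too (-0.35 ± 0.05), and RNF145, a ligase gene of sterol-regulated degradation, was higher (0.38 ± 0.05).

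Among 9 partners and relatives of the sensors 3 were higher and 3 lower. The proteases that cut ATF6 in the Golgi went apart, with MBTPS1 at 0.17 ± 0.04 (edgeR adjusted p = 0.00157) and MBTPS2 at -0.35 ± 0.06 (edgeR adjusted p = 5.06e-05), and TRAF2, an adaptor gene of IRE1, rose by 0.33 ± 0.07. Of 12 other known XBP1 targets and secretory genes 4 were higher and 0 lower. KDELR3 and KDELR2 code for receptors that return chaperones with a KDEL tail to the ER. KDELR3 had 130.1, 117.5 and 119.5 CPM in KCl and 85.1, 87.1 and 87.9 CPM in control (0.50 ± 0.05, edgeR adjusted p = 1.38e-08), KDELR2 was at 0.33 ± 0.04 and SEC24D at 0.22 ± 0.05, while the HSP40 genes DNAJB9 (-0.16 ± 0.10), DNAJB11 (-0.03) and DNAJC3 (-0.15 ± 0.07) did not pass.

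Of 11 genes of the PERK branch 3 were higher and 2 lower. The ATF4 gene rose by 0.14 ± 0.04 and TRIB3 by 0.25 ± 0.04, while SESN2 was lower (-0.47 ± 0.04, edgeR adjusted p = 3.3e-09), as was PPP1R15A (-0.20 ± 0.05), which codes for the phosphatase subunit that reverses the action of PERK. DDIT3, the gene of the stress factor CHOP, had 73.7 CPM in KCl and 76 CPM in control on average and did not pass (-0.04 ± 0.06, edgeR adjusted p = 0.604).

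Some values rest on shared sequence. Counts were not whole in at least 1 library for 5 members (ATF6, UGGT1, EDEM2, ERO1A and ERO1B), so part of their reads was shared out with other genes or transcripts. By GENCODE release 29, 14 members share exon bases with a gene on the opposite strand. The libraries were strand-specific per the labels' protocols, but the labels leave unstated whether reads were counted by strand. Whether the counts of these members include reads from the opposite strand is therefore not known. The largest such overlap with a gene of the table was that of DERL3 with SMARCB1 (2911 bases), followed by PDIA6 with ATP6V1C2 (1033 bases), PDIA3 with ELL3 (627 bases) and PPIB with SNX22 (519 bases).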

How the data were processed

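Messenger RNA of 6 AC16 libraries, 3 KCl and 3 control, was sequenced from strand-specific libraries, per the labels' protocols, and per the submitters' processing notes the build was GRCh38.p12. The aligner and counter used are not given in the labels or headers. The authors deposited 1 table with an estimated count of reads per gene, not normalized, of which 11.25% to 11.87% in a library were not whole. The TPM and FPKM values in that table were scaled by the authors to gene length and library size, per the file headers. Column codes were matched to groups through the deposited group means, which differed from the library means by at most 3.3e-10.

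Rounded estimated counts entered edgeR 4.0.16 under R 4.3.3 (TMM, filterByExpr with minimum count 10 and total 15, robust quasi-likelihood F test, two-sided, Benjamini-Hochberg over 13044 genes, threshold 0.05). SE is the size of the log2 fold change over the square root of F. On simulated data for this comparison (13044 genes), 71.6% of 1.25-fold, 97% of 1.5-fold and 100% of 2-fold changes were recovered. These changes were put into 67, 67 and 66 genes, far fewer than the 4963 called in the data. Only genes above a floor of expression were changed, so recovery at low levels was not covered. Alternatives were RLE scaling, other filters, each library left out, a replicate block, DESeq2 1.42.0, limma 3.58.1 (voom, and on log2 of TPM or FPKM plus 1, or TPM plus 0.1) and glmTreat. Replicate pairs differed by more than sampling noise (chi-square per gene 3.05 to 4.53).

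The members and lists were chosen with earlier results of these data known. Values in each library are given for HSPA5, the sensors and XBP1, and for up to 4 called members of each function with the smallest p, and up to 3 called genes are named from each other list, with further genes named after their values were seen. Gene positions are from GENCODE release 29. Protein sequences were not analysed here. A count of 0 would allow 3 reads, or 0.156 to 0.161 CPM, for counting error only.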

Additional observations from a re-analysis of the deposited data

How the results depend on the processing

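Under 15 of the 16 alternatives (all but glmTreat), 13 of the 19 called members (11 lower, 2 higher) kept their direction and their side of the threshold. HYOU1, PDIA4 and PDIA5 did so under all 16. RLE scaling, both other filters, limma-voom and the replicate block changed no call of a member. Against a change of 1.2-fold, 661 genes were higher and 430 lower in all, 1 member was higher and 2 lower, and of the other ER genes 2 were higher and 5 lower. On log2(TPM + 1) and on log2(TPM + 0.1), 3 members were higher, and on log2(FPKM + 1) 2 members, 10 other ER genes and 1594 genes in all were higher, where the counts gave 5, 21 and 2621. With each library left out, 4 to 6 members were higher and 12 to 14 lower. Over all genes, log2 fold changes had a median of -0.005 from counts, -0.037 from log2(TPM + 1) and -0.055 from log2(FPKM + 1), and the cause of the lost calls was not tested.

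Sign changes occurred among members that did not pass. With log2(TPM + 1), log2(TPM + 0.1) and log2(FPKM + 1) in turn, P4HB was at -0.02, -0.02 and -0.05, ERO1A at -0.02, -0.02 and -0.04, DERL2 at -0.01, -0.01 and -0.03, and SELENOS at -0.00, -0.00 and -0.03. With a library left out, values ran from -0.00 to 0.04 for P4HB, -0.04 to 0.06 for ERO1A, -0.02 to 0.07 for DERL2, -0.02 to 0.05 for SELENOS, -0.07 to 0.02 for SDF2L1, -0.19 to 0.09 for ERO1B, -0.08 to 0.03 for EDEM2 and -0.06 to 0.00 for SEL1L.

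The labels do not state whether the replicate numbers pair the libraries. Deviations from the group means correlated at -0.012 to 0.061 between same-numbered libraries and at -0.125 to 0.119 between the others. With so few libraries these values cannot decide whether the libraries were prepared in pairs. The replicate block gave 2715 higher and 2425 lower genes, with 5 higher and 14 lower members. DERL3 and ERO1B were the members with the widest errors (SE 0.22 and 0.13), so that changes of their size were not detectable. Their SD was 25.7% and 20.4% of the mean CPM in KCl, and 8.64% and 7.37% in control. Depths of all libraries were 18601977 to 19286588 reads.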
